A study of Mus musculus with 77 samples.

Results

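The regions described here are the 1320 intervals at which the authors called p53 binding in bone-marrow-derived macrophages (BMDM, macrophages grown in culture from marrow) of Trem2 knockout mice (KO) kept for 24 h in hyperoxia. They are every interval of that peak list, and no measured value beyond the authors' own call was used to choose them. They make up 1320 of 11305 intervals in the 10 p53 peak lists of the series. Each member was then marked by whether it overlapped, by at least 1 bp, one of the 3500 intervals called in hyperoxic macrophages of C57BL/6J mice (B6). The label fits the titles of the samples, but the genotype entry of the KO ChIP samples reads C57BL/6J, so the list is the one labelled KO by title.

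The study asked how Trem2, a macrophage receptor, and p53, a stress-activated transcription factor, bear on oxygen injury of the newborn lung. Its macrophages came from B6 mice, from a Trem2 knockout strain bought from Jackson Laboratory and, for RNA only, from DBA/2J (DBA) mice, and were held for 24 h in room air or hyperoxia. The labels give neither the age of the marrow donors nor the oxygen level of the cultures, and the RNA column names of room-air and hyperoxia macrophages alike carry the code invitro95, which no label explains. RNA was sequenced from 2 libraries in each of the 6 macrophage groups, and p53 was precipitated with the 1C12 antibody from 2 samples in each of the 4 KO and B6 groups. The lungs mentioned below came from pups of B6, KO and DBA mice raised in room air or in 75% oxygen from the first day after birth to postnatal day 14.

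Trem2 is a surface receptor of macrophages and microglia that senses lipids and cell debris and signals through the adaptor Tyrobp. The protein p53, made from Trp53, is held low in unstressed cells by the ubiquitin ligase Mdm2 and its partner Mdm4, and accumulates after DNA damage, which high oxygen can cause. It binds DNA as a tetramer at pairs of a short palindromic decamer and raises genes of cell cycle arrest such as Cdkn1a, of apoptosis such as Bbc3 and Bax, and of its own feedback such as Mdm2, Ccng1 and Zmat3.

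Only a few members were found where RefSeq promoter sequence could show the bound DNA. On the chromosomes searched, 10 overlapped the 250 bases before a RefSeq start site, and 6 of these were shared with B6. Not every chromosome was searched, so these are not counts over all 1320 members. The pieces of these members below come from RefSeq (build GRCm38.p6, the build of the mm10 coordinates) and are written 5′ to 3′ on the strand of the gene, with each match to the p53 decamer in capitals. They are shown because they include the highest shared member with promoter sequence, 2 classical p53 target genes, another shared promoter and 2 members that were not shared. In order they cover chr1:155056274-155056434 (plus strand), chr17:29090820-29090978 (plus), chr11:40755364-40755536 (minus), chr6:33248878-33248979 (plus), chr5:67260315-67260414 (plus) and chr8:71569347-71569446 (plus).
Gm51651: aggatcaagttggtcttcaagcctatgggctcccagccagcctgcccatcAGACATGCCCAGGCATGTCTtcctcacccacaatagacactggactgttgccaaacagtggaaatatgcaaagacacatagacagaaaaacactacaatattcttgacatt
Cdkn1a: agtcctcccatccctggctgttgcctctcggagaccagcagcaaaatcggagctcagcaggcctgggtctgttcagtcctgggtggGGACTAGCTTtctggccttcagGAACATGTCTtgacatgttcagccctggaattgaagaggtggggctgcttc
Ccng1: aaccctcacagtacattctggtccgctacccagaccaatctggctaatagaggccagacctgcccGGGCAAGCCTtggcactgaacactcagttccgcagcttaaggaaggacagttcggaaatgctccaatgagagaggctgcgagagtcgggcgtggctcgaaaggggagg
Exoc4: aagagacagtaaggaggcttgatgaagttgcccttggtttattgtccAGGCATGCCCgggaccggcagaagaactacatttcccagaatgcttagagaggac
Tmem33: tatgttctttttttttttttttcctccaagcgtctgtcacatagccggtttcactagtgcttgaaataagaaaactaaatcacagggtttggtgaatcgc
Slc27a1: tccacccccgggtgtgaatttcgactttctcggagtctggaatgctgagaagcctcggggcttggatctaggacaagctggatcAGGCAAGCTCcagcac

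The first piece, upstream of the predicted gene Gm51651, held 2 decamers side by side with a spacer of 0 bases, and the centre of that pair lay 0 bp from the centre of the peak. The Cdkn1a piece ends at an upstream RefSeq start of that gene and held 2 decamers 12 bases apart whose centre lay 2 bp from the peak centre. The Ccng1 piece held 1 decamer 3 bp from the peak centre, and the Exoc4 piece held 1 decamer 51 bp away. Only exact matches to the decamer were counted and put in capitals. Directly after GAACATGTCT in the Cdkn1a piece lies a stretch that misses a match by 1 base. Another lies directly before GGGCAAGCCT in the Ccng1 piece. Pairs with such a mismatch were not searched, so the counts and the spacer of 12 bases hold for exact matches only. Neither a pair nor a single decamer was found in the Tmem33 piece, and the Slc27a1 piece held 1 decamer 90 bp from its peak centre. The shared member at Rps19, not printed, held 1 decamer 11 bp from its peak centre. On the chromosomes searched, 5 of the 6 shared pieces and 1 of the 4 unshared ones held a decamer. Over the 250 bases upstream of all 32851 RefSeq promoters the share was 7.13%, with 0.0639% for a pair at most 13 bases apart. The pieces are shorter than that window, the decamer reads the same on both strands, and a match describes the letters only. Unshared pieces were at most 100 bases long, whereas the shared ones had 102 to 183 bases, apart from 20 at Commd1. The counts of shared and unshared pieces are therefore not on an equal length.

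A score here is the number of sequenced tags at a peak scaled to 10 M (mega) tags. The KO hyperoxia list rests on 5.78 M tags and the B6 hyperoxia list on 7.85 M. In the KO list 1 tag was worth 1.73 units of score, the median member had a score of 14 or 8 tags, and 722 members (54.7%) had at most 8 tags. The highest member reached 400 or 231 tags. According to the file headers 0.25% of the tags lay in peaks, against 0.76% in the B6 hyperoxia list, 0.64% in B6 room air and 0.23% in KO room air. The KO list was called against the B6 input of the same oxygen condition, and 9047 of its 10597 putative peaks (85.4%) were removed by that input. Each list pools its replicates, so the intervals given on scores and shares are exact 95% intervals of counting error only, and no spread between replicates can be given for binding.

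Few of the members were found in another list. Of the 1320 members, 115 (8.71%, Clopper-Pearson interval 7.25% to 10.4%) overlapped a B6 hyperoxia peak, 109 (8.26%) a B6 room-air peak and 49 (3.71%) a KO room-air peak. Seen from the other lists, these were 3.29% of the B6 hyperoxia peaks, 2.65% of the B6 room-air peaks and 3.88% of the KO room-air peaks. Among the lung lists, 47 members overlapped B6 hyperoxia lung, or 20.0% of that list, and 9 overlapped KO hyperoxia lung, or 6.72% of that list. Low overlap was not limited to comparisons with KO: 298 of the 3500 B6 hyperoxia peaks (8.51%) overlapped the B6 room-air list. Among peaks above the median score of each list, 105 of 598 members (17.6%) were shared with B6 hyperoxia and 45 (7.53%) with KO room air.

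The members fell into 4 classes by overlap. The class found in the KO hyperoxia list alone was the main one, with 1191 members (90.2%). A further 65 members were in both B6 lists but not in KO room air, 36 were in all 4 macrophage lists and 28 had another combination. None of the 1191 overlapped any of the 6 lung lists, whereas 52 of the 115 members shared with B6 hyperoxia (45.2%) did.

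How likely a B6 peak was to be found in KO followed its score in B6. Of the 35 B6 hyperoxia peaks with a score of 200 or more, 33 (94.3%, interval 80.8% to 99.3%) overlapped a member. Among the 50 peaks from 100 to under 200 the share was 60.0% (45.2% to 73.6%). It fell to 16.5% of 109 peaks from 50 to under 100, 3.14% of 350 from 25 to under 50 and 0.355% of 1974 from 10 to under 15. The KO room-air list held 6 of the 35 highest B6 peaks (17.1%, interval 6.56% to 33.6%), and the B6 room-air list held all 35. So the strongest B6 sites were nearly all called in KO cells in hyperoxia, and most of them were not called in KO cells in room air.

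**Figure D1:**
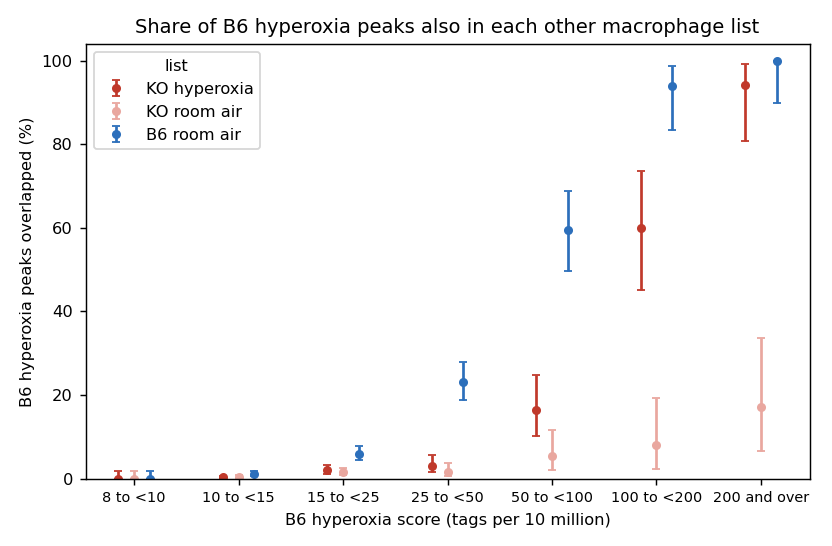
Share of the 3500 B6 hyperoxia peaks (y axis, percent, exact 95% interval of counting error) that overlap the KO hyperoxia, KO room-air or B6 room-air list, in bins of their B6 score (x axis, tags per 10 M). The share in KO hyperoxia climbs from 0.355% at 10 to under 15 to 94.3% at 200 and over, where KO room air holds 17.1%.

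The 65 members in both B6 lists but not in KO room air are the class with the named p53 target genes. Their median score was 29 in KO hyperoxia, 173 in B6 hyperoxia and 44 in B6 room air. The ratio of the KO to the B6 hyperoxia score had a median of 0.182, and it was below 0.5 at 64 of the 65. The exception, at chr2:98666753-98666953, lies in a run of neighbouring peaks (at least 2 other members within 50 kb) and had a ratio of 1.52 (1.21 to 1.93). In B6 the hyperoxia score was above the room-air score at 64 of the 65, with a median ratio of 3.78. The share of tags in peaks, given above, was also lower in KO, and its part in these ratios was not tested. In this class 38 members (58.5%) overlapped the B6 hyperoxia lung list, and 25 (38.5%) lay within 10 kb of a listed start site.

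Bbc3 encodes PUMA, a p53-induced killer protein that blocks the pro-survival members of the BCL2 family. Its member at chr7:16308606-16308806, 0.878 kb before the listed start site, scored 140 (111 to 174) in KO hyperoxia, 401 in B6 hyperoxia and 192 in B6 room air. The KO to B6 ratio in hyperoxia was 0.349 (0.270 to 0.447). This was the highest member near a gene of the p53 lists, and its KO score was below the B6 room-air score.

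Cdkn1a encodes p21, the inhibitor of cyclin-dependent kinases that carries the p53 arrest response. The member at chr17:29090820-29091020, 2.85 kb before the listed start, scored 87 (64.2 to 114) in KO hyperoxia, 385 in B6 hyperoxia and 149 in B6 room air, a ratio of KO to B6 in hyperoxia of 0.225 (0.163 to 0.304). The same peak scored 40 in B6 hyperoxia lung and 22 in KO hyperoxia lung. A neighbouring member at chr17:29078936-29079136, 0.091 kb inside Trp53cor1, the noncoding RNA gene beside Cdkn1a also known as lincRNA-p21, scored 62 (43.6 to 86.3), 363 and 131 in the same order. Both peaks of this locus were therefore called in KO hyperoxia at a lower score than in either B6 list.

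Genes of p53 feedback came next. The member 6.99 kb upstream of Mdm2 scored 69 in KO hyperoxia against 355 in B6 hyperoxia, a ratio of 0.195 (0.136 to 0.272). At Zmat3, which encodes an RNA-binding p53 target, the scores were 43 and 303, and at Ccng1, which encodes cyclin G1, they were 38 and 236. Mdm4 had a member with 36 against 226 and a second one with a score of 16 (9 tags) that no B6 list held. At these 4 genes the ratio at the shared member ran from 0.143 (0.0905 to 0.216) at Zmat3 to the value at Mdm2.

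Among the arrest and death genes, Psrc1, which encodes a spindle protein, scored 35 in KO hyperoxia and 150 in B6 hyperoxia. Bax, which encodes a pore-forming protein of the mitochondrial death pathway, scored 23 (12.0 to 38.5) and 200, a ratio of 0.113 (0.0586 to 0.198). The member near Bax is also within 10 kb of Ftl1, the ferritin light chain gene. Glipr1 scored 81 and 308, and Snhg15 scored 62 and 168. None of these members had a counterpart in the KO room-air list.

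Among the strongest shared members with a KO room-air peak, 3 whose score rose with oxygen are described here. They were chosen after these values were seen. Of the 36 members in all 4 lists, 26 scored lower in KO hyperoxia than in KO room air and 8 scored higher. The member at chr1:155056234-155056434, whose paired decamers are printed above, scored 277 (236 to 323) in KO hyperoxia, 47 in KO room air, 451 in B6 hyperoxia and 380 in B6 room air. Its KO ratio of hyperoxia to room air was 5.93 (3.90 to 9.36). The member 3.2 kb upstream of Klhdc4 scored 158, 27, 373 and 291 in the same order, a KO ratio of 5.85 (3.37 to 10.9). The member 1.14 kb upstream of Dyrk3, which encodes a kinase, scored 113, 20, 358 and 162, a KO ratio of 5.70 (2.98 to 12.0). At each of the 3 the lower limit of the KO ratio, which covers counting error only, was above 1. Because the 3 were picked for their rise, these limits are no test of it.

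**Figure D2:**
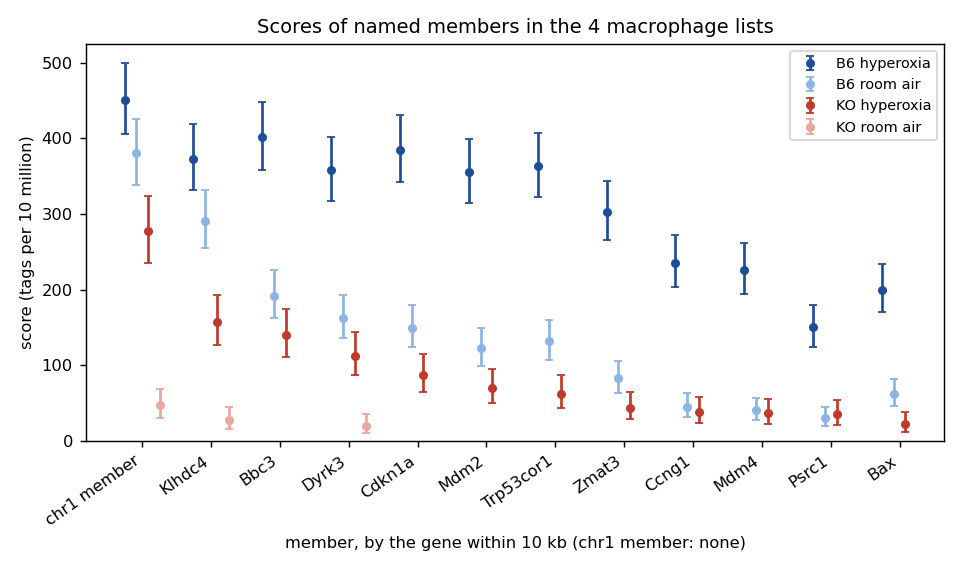
Scores (y axis, tags per 10 M, exact 95% interval of counting error) of 12 shared members, named on the x axis by a gene within 10 kb except the chr1 member, which has none, in the 4 macrophage lists; no point is drawn where a list has no peak. B6 hyperoxia is the highest value at each of the 12, from 150 at Psrc1 to 451 at the chr1 member, and KO room air has a point at 3 of them.

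The 36 members in all 4 lists behaved differently. Their median ratio of KO to B6 hyperoxia score was 1.43, and 30 of the 36 were above 1. Their median ratio of KO hyperoxia to KO room air was 0.891. Of these, 12 lay in runs of neighbouring peaks or on unplaced scaffolds, with KO to B6 ratios of 1.35 to 1.81, and 1 of the 12 overlapped a lung list, that of DBA in room air. The highest member of all, at chr2:98662656-98662856, was one of them: it scored 400 in KO hyperoxia, 445 in KO room air, 297 in B6 hyperoxia and 331 in B6 room air. The next, at chr9:35305300-35305500, was outside such runs and scored 332, 397, 214 and 322. Its KO to B6 ratio was 1.55, and that of the member at chr14:19417735-19417935, also outside runs, was 1.54. Neither overlapped a lung list. Over the 24 members outside runs the ratio went from 0.147 to 2.0. The run rule counts neighbouring members only and no list of high-signal regions was applied, so whether members outside runs are such regions was not tested. Of the 5 highest shared members, 3 had a higher score in KO room air than in KO hyperoxia, 1 had no KO room-air peak and 1 was the chr1 member above.

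In all, 45 members (3.41%) were in runs or on unplaced scaffolds, among them neighbouring peaks at the start of chromosome 9 and on chromosome 2. Without them 102 of 1275 members (8.0%) were shared with B6 hyperoxia and 30 of 1275 (2.35%) with KO room air. Over the 115 shared members the logarithms of the KO and B6 scores had a Pearson r of 0.48 and a Spearman rho of 0.55. Within the 13 shared members in runs or unplaced r was 0.99, and within the 65 members of the class in both B6 lists it was 0.68. These are descriptions across peaks of the same pair of pooled lists, which share their input.

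**Figure D3:**
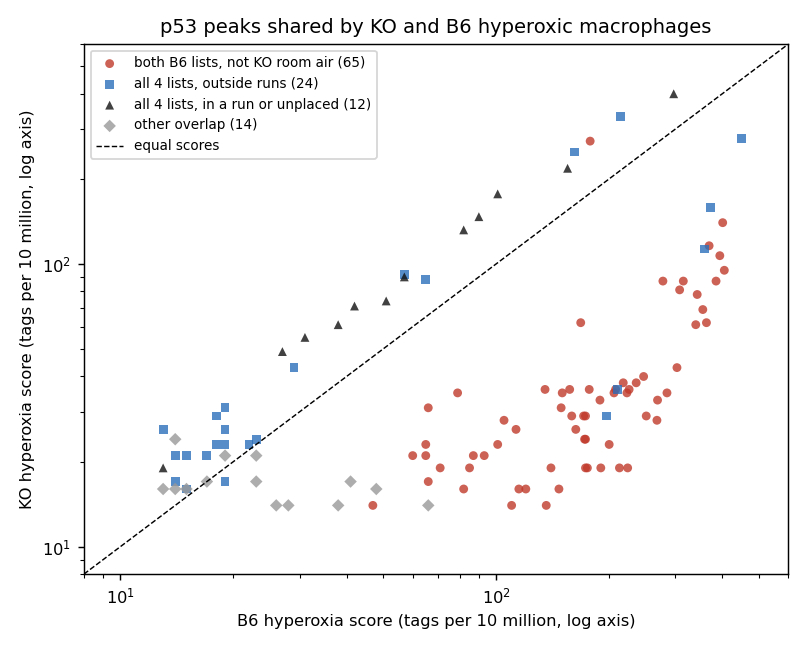
KO hyperoxia score (y axis) against B6 hyperoxia score (x axis) of the 115 shared members, both in tags per 10 M on log axes, by class of overlap; the dashed line marks equal scores. Members in both B6 lists but not KO room air lie below the line at 64 of 65, and those in all 4 lists that are in runs or unplaced lie above it at 12 of 12.

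The 1191 members of the KO hyperoxia list alone were close to the floor of the list. Their median score was 14, and 712 (59.8%) had at most 8 tags. Outside runs their highest score was 97, at chr14:19416103-19416303, which lies 1.63 kb from a shared member with a score of 249. The next highest was 26 or 15 tags, and 58 of 1166 (4.97%) reached a score of 20. The 5 highest members not shared with B6 hyperoxia comprised this one and 4 in runs or on unplaced scaffolds, which scored 61 to 156 in KO hyperoxia and also had KO room-air and B6 room-air peaks. Across a boundary of 1 kb between midpoints, 8 further members (0.664% of the unshared) would count as shared with B6 hyperoxia.

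Members lay within 10 kb of a start site more often than the genome as a whole. Of all members 353 (26.7%) were within 10 kb of a start site and 26 (1.97%) within 1 kb, where 14.6% and 1.69% of the genome span lie within these distances. Inside the span of a listed gene were 63.7% of the members, against 45.7% of the genome span. Shared members were within 1 kb of a start in 8 of 115 cases (6.96%), unshared ones in 18 of 1205 (1.49%), and within 10 kb the shares were 28.7% and 26.6%. In the B6 hyperoxia list 6.71% of peaks were within 1 kb and in the KO room-air list 1.5%. No base composition or mappability was measured, and their part in these shares was not tested.

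Of 81 genes on 4 lists of p53 targets (feedback, arrest, death, and repair or metabolism), 9 had a member within 10 kb (11.1%): Mdm2, Mdm4, Ccng1, Zmat3, Cdkn1a, Psrc1, Bax, Bbc3 and Abhd4. The KO room-air list had peaks at 2 of the 81 (2.47%), Casp1 and Sulf2, the B6 hyperoxia list at 30 (37.0%) and the B6 room-air list at 26 (32.1%). Over all 24940 genes of the table the shares were 1.84%, 1.46%, 4.77% and 6.34% in the order KO hyperoxia, KO room air, B6 hyperoxia and B6 room air. At 8 of the 9 the member was shared with B6, and the exception was Abhd4 with a score of 16 (9 tags). Targets with a B6 hyperoxia peak but no member included Btg2, Sesn2, Pmaip1, Aen, Phlda3 and Gdf15. No member lay within 10 kb of 12 listed genes of the AP-1 family or 14 listed targets of the antioxidant factor NRF2. Neither list need be complete. Both B6 lists had a peak within 10 kb of Trem2 and neither KO list did. The KO lists had peaks near a smaller share of all genes, as given above, so this absence at 1 gene was not tested.

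RNA was measured in TPM, transcript abundance per length scaled to a fixed total, in 2 libraries per group, with an estimated 14.6 to 47.0 M reads each. KO and DBA replicates are labelled by number and all carry the mark MF, and those of B6 carry the marks MF and F. Since replicates are told apart only in these ways, p-values measure the spread between these libraries, which may be technical. Trem2 stood at 236 and 239 TPM in KO room air, 252 and 243 in KO hyperoxia, 948 and 962 in B6 room air and 908 and 917 in B6 hyperoxia, so every KO library was below every B6 library but none was at 0, and the labels do not say which part of the gene is deleted. The 15 other macrophage identity genes were all above 1 TPM in every library. Summed levels of 6 fibroblast markers were 87.9 to 110 TPM in KO room air, 24.7 to 32.2 in KO hyperoxia and 0.069 to 0.682 in B6. A set of 7 neutrophil markers summed to 51.6 to 98.6 in KO room air, 8.87 to 11.5 in KO hyperoxia, 26.3 to 46.3 in B6 room air and 3.39 to 7.81 in B6 hyperoxia. In DBA the fibroblast markers summed to 78.0 to 91.1 TPM in room air and 30.6 to 34.5 in hyperoxia, so such levels were not particular to KO. The neutrophil markers of DBA summed to 5.28 to 7.2 in room air and 2.38 to 2.93 in hyperoxia. None of these markers was at 0 in every library. Their part in the RNA results was not tested, and fewer cells of a type and less RNA per cell cannot be told apart in bulk samples. Lymphocyte markers summed to at most 0.727 TPM, although 1 of them, the B-cell gene Ms4a1, had a member within 10 kb.

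Many genes near a shared member rose in KO cells in hyperoxia. Of 39 genes with a shared member within 10 kb 31 were expressed enough to test, and 16 rose and 2 fell, where 6.88% of all 12320 tested genes rose and 16.4% fell (limma on log2(TPM + 1), adjusted p below 0.05). In percent, 51.6% of these genes rose and 6.45% fell. Their median change was 0.38 on the log2(TPM + 1) scale, against -0.08 for all genes. In place of 18 calls, leaving out 1 KO library gave 10 to 12: 11 without the first room-air library, 10 without the second hyperoxia library and 12 without either of the others.

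Of the tested genes near an unshared member 18.3% were called in KO. Of 338 tested, 25 rose (7.4%) and 37 fell (10.9%), with a median of -0.06. Over all members 365 genes were tested and 77 were called (21.1%), where 23.3% of all genes were called, 39 rising and 38 falling. This share is near that of all genes. Quantile normalization moved the rising share of calls from 29.6% to 49.0% over all genes and from 50.6% to 67.4% over genes with a member, and near shared members it gave 19 rising and 1 falling. Leaving out 1 KO library brought the 77 to between 44 and 46. Genes with a member were more often expressed than other genes of the table: 75.6% of the 459 reached 1 TPM in KO hyperoxia, with a median of 10.0 TPM, against 45.5% and 0.398 TPM for all.

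Among the genes near a shared member Cdkn1a had the largest rise in KO. It stood at 103 and 101 TPM in KO room air and at 257 and 252 in KO hyperoxia, and at 125 and 101 in B6 room air and 343 and 257 in B6 hyperoxia. In both genotypes each hyperoxia library was above each room-air library. The change was 1.31 ± 0.13 (SE, n = 2 against 2, limma adjusted p = 0.000178) in KO and 1.40 ± 0.13 (limma adjusted p = 0.000128) in B6 on the log2(TPM + 1) scale. The difference of the 2 changes was -0.08, with a 95% interval of -0.49 to 0.32 (limma adjusted p = 0.870).

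Mdm2 rose from 58.5 and 54.7 TPM to 129 and 124 in KO, and from 52.8 and 50.2 to 120 and 106 in B6. Its changes were 1.15 ± 0.08 (SE, limma adjusted p = 2.88e-05) and 1.12 ± 0.08 (3.44e-05), and their difference was 0.03 (95% interval -0.22 to 0.28). So the intervals of the difference in RNA response for Cdkn1a and Mdm2 included 0. The p53 scores at their members, at 0.225 and 0.195 of the B6 scores, compare the genotypes in hyperoxia alone. Neither member had a KO room-air peak, so no change of p53 score with oxygen can be given for KO. In hyperoxia alone, KO RNA differed from B6 by -0.22 (95% interval -0.51 to 0.06) for Cdkn1a and 0.17 (-0.01 to 0.34) for Mdm2.

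Bbc3 stood at 13.4 and 14.0 TPM in KO room air and 18.7 and 19.1 in KO hyperoxia, and at 14.7 and 13.4 in B6 room air and 22.7 and 24.1 in B6 hyperoxia. The rise was 0.44 (limma adjusted p = 0.0173) in KO and 0.70 (0.00172) in B6, a difference of -0.26 (95% interval -0.60 to 0.09). Without any 1 of the 4 KO libraries the KO rise no longer passed, at adjusted p of 0.0734 to 0.0997 and changes of 0.41 to 0.47. Bax went from 120 and 130 to 199 and 199 TPM in KO, a rise of 0.67 (0.00218), and from 132 and 108 to 231 and 186 in B6, a rise of 0.79 (0.000911). Both death genes were higher in each hyperoxia library than in each room-air library of the same genotype.

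Zmat3 rose by 0.84 in KO and by 0.99 in B6 on the log2(TPM + 1) scale, and Ccng1 rose by 0.52 and 0.48. Psrc1 went from 5.15 and 4.05 TPM to 8.82 and 8.70 in KO, a rise of 0.81 (limma adjusted p = 0.0161), and from 5.17 and 2.97 to 13.8 and 11.9 in B6, a rise of 1.48. The difference of the Psrc1 rises was -0.67 (limma adjusted p = 0.282, 95% interval before adjustment -1.29 to -0.04). The KO rise of Psrc1 was lost without the second room-air library (0.67, adjusted p = 0.125) or without the first (0.80, 0.0831) or second (0.82, 0.0781) hyperoxia library. Mdm4 was the gene of this group that fell, from 26.1 and 27.2 to 19.9 and 20.6 TPM in KO and from 12.0 and 11.5 to 7.20 and 7.06 in B6. Its fall in KO was -0.38 (0.00519), and -0.35 (0.0520) without the second room-air library.

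**Figure D4:**
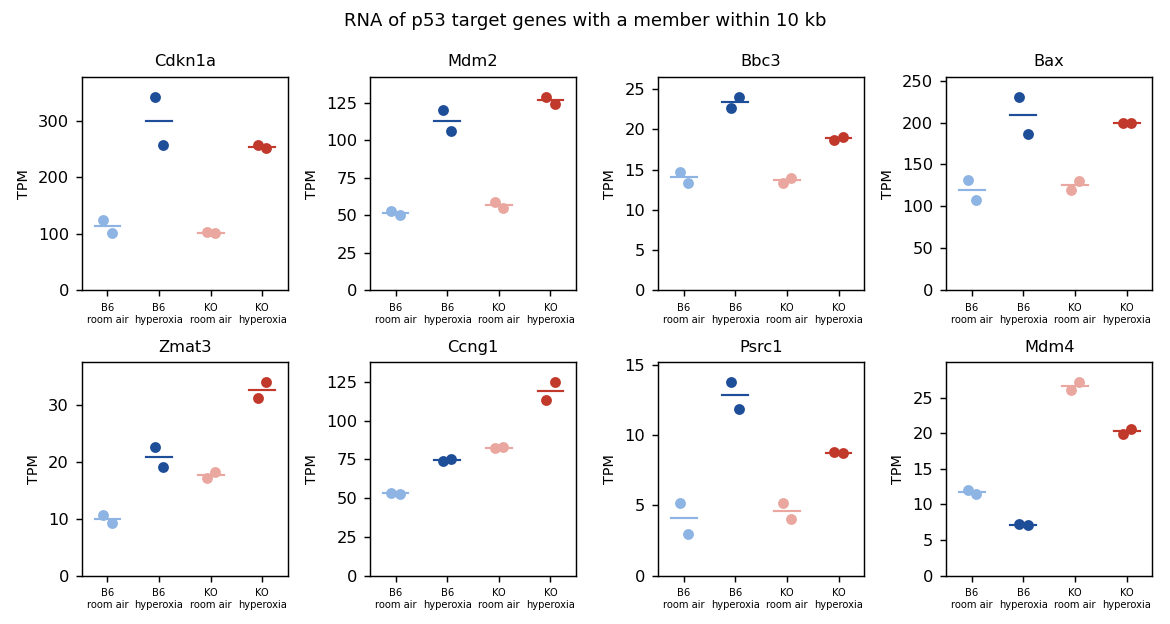
RNA level (y axis, TPM) of 8 p53 target genes with a shared member within 10 kb, in the 2 libraries (points) and their mean (line) of B6 and KO macrophages in room air and hyperoxia. Cdkn1a reaches 257 and 252 TPM in KO hyperoxia against 103 and 101 in KO room air, and Mdm4 is the gene that is lower in hyperoxia in both genotypes.

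Of the 9 p53 target genes with a member, 7 rose and 1 fell in KO, and 7 rose and 1 fell in B6, while Abhd4 passed in neither, where 6.88% of all tested genes rose and 16.4% fell in KO and 5.68% rose and 22.8% fell in B6. Of the 64 other tested genes of these lists 11 rose and 11 fell in KO, and 12 rose and 14 fell in B6. By role, 3 of 4 feedback genes with a member rose, as did both arrest genes and both death genes. Trp53 itself had no member and fell in both genotypes, by 0.60 in KO (limma adjusted p = 0.00538) and by 0.62 in B6 (0.00391) on the log2(TPM + 1) scale. Of the 14 listed NRF2 targets, none with a member, 11 rose in each genotype.

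In B6 cells 118 of the 365 tested genes with a KO member were called (32.3%), where 28.5% of all genes were called, and 34 rose and 84 fell, where 5.68% of all genes rose and 22.8% fell. Genes near shared members again stood higher, with 15 of 31 rising (48.4%), 4 falling and a median of 0.30 against -0.13 for all genes. Quantile normalization moved the rising share of calls from 19.9% to 49.3% over all genes and from 28.8% to 58.0% over genes with a member, and near shared members it gave 16 rising and 1 falling. Without the MF library of B6 room air the 118 became 67, and without the F library of B6 hyperoxia 76. With only the B6 libraries in the fit none of all 12320 tested genes passed in limma, and 3647 had an unadjusted p under 0.05. So none of the 31 passed either, and 18 of them had an unadjusted p under 0.05.

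**Figure D5:**
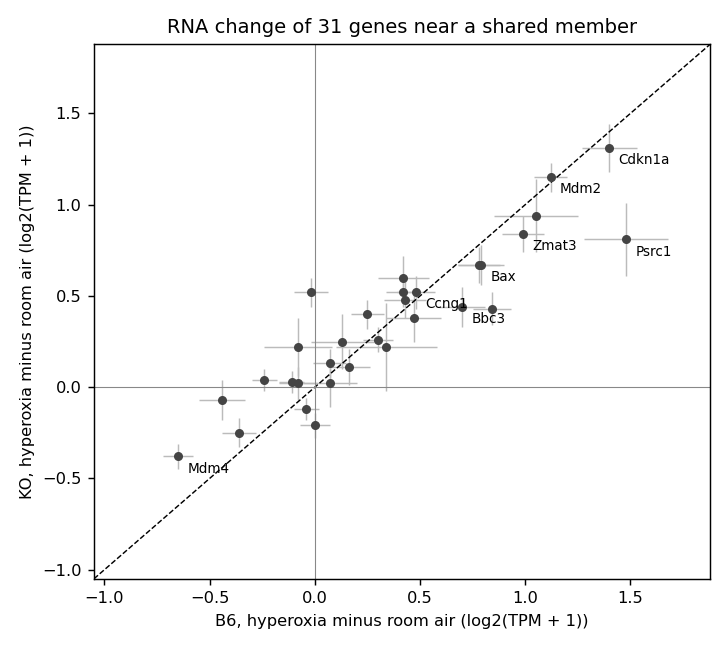
Change of RNA between hyperoxia and room air on the log2(TPM + 1) scale in KO (y axis) and B6 (x axis) for the 31 tested genes near a shared member, with SE; the dashed line marks equal change. Cdkn1a and Mdm2 lie at 1.31 and 1.15 in KO and 1.40 and 1.12 in B6, and Mdm4 is below 0 in both.

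Whether the 2 genotypes responded differently was tested for the same genes. Of 365 genes with a member 2 passed (0.548%), where 1.45% of all genes did, and both were in the higher direction (0.657% of all genes) and none in the lower (0.795%). Quantile normalization gave 3 calls among the genes with a member, 1 higher and 2 lower. None of the 31 genes near a shared member passed in limma. Leaving out single libraries gave 0 to 6 calls among the genes with a member: 6 without the F library of B6 room air, 2 or 3 without 1 DBA room-air library, and 0 without any 1 of the others. The nearest gene by a shared member was Chchd4, which encodes a mitochondrial import protein, with a KO change of 0.52, a B6 change of -0.02 and a limma adjusted p of 0.0542 for the difference. A p that misses the threshold does not show that the 2 responses were alike.

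KO cells were also compared with B6 cells in hyperoxia. Of 365 genes with a member 198 were called (54.2%), where 50.3% of all genes were called, with 159 higher and 39 lower in KO, where 38.1% and 12.2% of all genes were. Near shared members 12 of 31 were higher and 4 lower. Quantile normalization, which moved the median of all genes from 0.19 to -0.01, moved the higher share of calls from 75.7% to 51.5% over all genes and from 80.3% to 62.2% over genes with a member, and gave 10 higher and 9 lower near shared members. Mdm4 was higher in KO by 1.38 (limma adjusted p = 1.2e-06), Ccng1 by 0.67 (0.000227) and Zmat3 by 0.62 (0.000539). Cdkn1a differed by -0.22 (0.173) and Mdm2 by 0.17 (0.106). Cdkn1a passed without the F library of B6 hyperoxia (-0.43, adjusted p = 0.0126) and Mdm2 without the MF library (0.26, 0.0369) or after quantile normalization (0.20, 0.0403). The B6 RNA columns carry another date code than the KO columns, and the DBA columns carry that of KO. Every KO column carries the mark MF, while each B6 group has 1 MF and 1 F column. Genotype therefore cannot be told apart from date code, nor fully from the mark, in these values. Each hyperoxia response lies within 1 date code.

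Changes are ranked here over genes with a member, a mean of at least 5 TPM in the higher group and a name other than a predicted one. The largest belonged mostly to genes with a member in the KO hyperoxia list alone, and in the KO response these had 8 to 13 tags or a score of 14 to 23. In KO the largest rises were those of Atf5, a stress-response transcription factor, by 1.53 (score 17) and of Mir7034 by 1.32 (score 14), followed by Cdkn1a and Mdm2. Zmat3 and Psrc1 came next, then Nup62, a nuclear pore gene (0.74), Aars, an alanyl-tRNA synthetase gene (0.73), Osbpl8 (0.73) and Impact (0.69). Leaving out 1 library moved the rise of the microRNA entry Mir7034 between 1.0 and 1.64, against 1.29 to 1.33 for Cdkn1a, so its rank is not fixed. The largest falls were those of Arrdc4 (-1.46), the interferon-induced gene Ifit3 (-1.35), the scavenger receptor gene Cd163 (-1.26) and Top2a, which encodes a topoisomerase of dividing cells (-1.25). Further falls were those of Zfp658 (-1.15), Dpysl2 (-1.05), Themis2 (-0.96), P2ry13 (-0.94), Trim12c (-0.79) and Acsf2 (-0.66). The fall of P2ry13 no longer passed without any 1 of the 4 KO libraries (-0.98 to -0.90, limma adjusted p up to 0.111). That of Acsf2 did not pass without either KO room-air library (adjusted p = 0.0624 and 0.0619) or the first KO hyperoxia library (-0.56, 0.0865), and that of Ifit3 without the first room-air (-1.24, 0.0624) or the second hyperoxia library (-1.28, 0.0599). Of these 10 falling genes none was near a shared member, and of the 10 rising genes 4 were.

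In B6 the largest changes of genes with a KO member included many of the same names. Atf5 rose by 1.89, Psrc1, Cdkn1a, Mdm2 and Zmat3 followed, and Fcrl1 rose by 0.95. The rise of Fcrl1 was 0.61 (limma adjusted p = 0.103) without the F library of B6 room air and 0.60 (0.115) without the MF library of B6 hyperoxia. The falls were led by Top2a (-2.53), Fignl1, an AAA ATPase gene of DNA repair (-1.69), and Kifc1, which encodes a spindle motor (-1.44). Between KO and B6 in hyperoxia the largest positive differences were those of Mir6244 (1.65), Zbed6 (1.43) and Mdm4, and the largest negative ones those of Hmgcs1, a gene of cholesterol synthesis (-1.14), Tspan13 (-1.11) and the integrin gene Itgb2 (-1.05). Mir6244 stood at 0.99 (limma adjusted p = 0.108) without the MF library of B6 hyperoxia, below Zbed6 and Mdm4, and at 1.55 (0.0743) without the second KO hyperoxia library. Adgre1, which encodes the macrophage marker F4/80, had a member with a score of 21 and changed by -0.10 in each genotype without passing.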

How the data were processed

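RNA and p53 ChIP libraries of macrophages were used. The authors called peaks with HOMER on pooled replicates, and the deposited score is the tag count scaled to 10 M tags, per the file headers (interval size 200, 4-fold over input, false discovery rate 0.001). The submitters' processing notes name Bowtie2, HOMER, STAR and mm10. RNA values are TPM deposited by the authors, and their listed genes sum to 529220 to 555113 per library. Whole tags were recovered from scores.

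Overlap needed at least 1 bp, and start sites came from all 24940 rows of the TPM table. TPM were tested as log2(TPM + 1) with limma 3.58.1 (R 4.3.3, trend, two-sided, Benjamini-Hochberg over 12320 genes with at least 1 TPM in at least 2 libraries), fitting all 12 libraries of 6 groups. All groups shared 1 estimate of the spread. Overlaps and intervals used Python 3.11.15 and SciPy 1.17.1. The limma step was tested on simulated data. Libraries of the same number or, in B6, of the same mark MF or F were not treated as pairs in the main fit.

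Named peaks were the 5 highest shared and unshared members and those within 10 kb of p53-list genes. Named genes were Trem2, Trp53, Cdkn1a, Mdm2, listed genes with a peak and, with at least 5 TPM, the 10 largest rises and falls in KO and 6 in other comparisons. Other members and genes were chosen after their values were seen. The members and gene lists were chosen with earlier results of these data known.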

Additional observations from a re-analysis of the deposited data

Results flagged for a closer look

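The KO response to hyperoxia minus that of B6 passed limma's test (Benjamini-Hochberg adjusted over all genes) at 2 genes with a member, both near a member of the KO hyperoxia list alone. Tuba1c, which encodes an alpha-tubulin, stood at 70.2 and 64.1 TPM in B6 room air, 39.8 and 42.7 in B6 hyperoxia, 42.8 and 39.1 in KO room air and 40.5 and 39.8 in KO hyperoxia. Its difference was 0.66 ± 0.12 (SE, limma adjusted p = 0.0343), from a change of -0.03 in KO and -0.69 in B6. Both B6 room-air libraries were above every other library.

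Kifc1, a spindle motor gene, stood at 7.29 and 5.75 TPM in B6 room air, 1.97 and 1.56 in B6 hyperoxia, 1.69 and 1.52 in KO room air and 1.1 and 0.776 in KO hyperoxia. Its difference was 1.01 ± 0.20 (SE, limma adjusted p = 0.0449), from a change of -0.43 in KO and -1.44 in B6. Its member had a score of 21 (12 tags) and that of Tuba1c a score of 14 (8 tags). Genotype and the date code of the libraries cannot be told apart in the room-air levels, and the mark F occurs in B6 but not in KO. Leaving out each of the 12 libraries in turn ended the call 9 times for Tuba1c, with differences of 0.60 to 0.73, and 11 times for Kifc1, with differences of 0.86 to 1.16.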

How the results depend on the processing

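Shares of members: above the median score 17.6% were shared with B6 hyperoxia and 7.53% with KO room air, and without runs and unplaced scaffolds 2.35% with KO room air. Within 1 kb of a start site lay 1.97%, within 50 kb 68.0%, and above the median score 32.1% within 10 kb. Fitting only the groups of a comparison gave 4533 genes called in KO, 0 in B6 (3647 at unadjusted p under 0.05) and 0 for the difference of responses (2163), and among genes with a member 123, 0 (124) and 0 (72), with 0 (18) near shared members in B6. For the difference of responses a pseudocount of 0.1 gave 9 genes and 0 with a member (63 at unadjusted p under 0.05), and no filter gave 275. With a replicate block it gave 556 and 13 with a member; the block gave 3895 genes in KO and 4600 in B6, and 19 and 20 near shared members, and for KO against B6 in hyperoxia it let Cdkn1a (-0.22, limma adjusted p = 0.00276) and Mdm2 (0.17, 0.0185) pass. The deviations of libraries with the same mark, MF or F, correlated across exposures at 0.38 in B6. Those of same-numbered libraries correlated at 0.08 in DBA and -0.05 in KO. Genes with a member called within 1 kb and 50 kb were 7 and 391 in KO, 11 and 483 in B6, 12 and 810 for KO against B6, and 0 and 18 for the difference. Leaving out 1 library gave 1331 to 3184 genes in KO, 1966 to 3823 in B6, 4490 to 6484 for KO against B6 and 0 to 264 for the difference, and with a member 44 to 92, 67 to 140, 135 to 208 and 0 to 6. Near shared members it gave 10 to 19 in KO and 15 to 19 in B6. Over 43 named genes, 2705 of 2924 alternative values kept direction and call, 169 lost the call, 50 gained it and 0 reversed; the causes were not tested. Pooled lists give binding no replicate spread, and at 8 tags a median member has a wide counting interval.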
